A study of Mus musculus with 9 samples.

Results

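The hyaluronan genes described here are 8 genes that make, cut or bind hyaluronan: the synthases Has1, Has2 and Has3, the hyaluronidases Hyal1 and Hyal2, and the binding proteins Tnfaip6, Cd44 and Vcan. Their probe sets were picked by gene symbol, through the array annotation, which gave them 20 of the 45037 probe sets other than controls. The genes themselves were chosen with earlier results of these data known. A probe set is a group of short oligonucleotides on the array that together report 1 transcript. Of the 20, 18 carried a single member symbol and covered 7 genes, and the other 2 were annotated to Hyal1 together with its neighbour Naa80, so that no value could be given to Hyal1 alone. All 7 genes passed the filter on low signals and were among 14122 tested genes.

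The samples were ear skin of C57BL/6 mice taken 6 h after a compound was put on the ear, with 3 Affymetrix arrays in each of 3 groups. DNFB (dinitrofluorobenzene), a reactive hapten that the labels class as an allergen, and BAC (benzalkonium chloride), a cationic detergent classed as an irritant, went on the right ear. The vehicle, acetone and olive oil, went on the left ear, so ear side and treatment cannot be told apart in either comparison with the vehicle. The labels state neither dose nor sex nor age. They number the replicates without saying whether each was a separate mouse, so the p-values reflect only how far these arrays spread, and that spread may be technical.

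Hyaluronan is a long unsulphated sugar chain that is spun out through the plasma membrane by the synthases, from the nucleotide sugars UDP-glucuronic acid and UDP-N-acetylglucosamine. In skin it fills the dermis and the spaces between living keratinocytes and holds water there. Hyaluronidases cut the chains, CD44 is the main cell surface receptor, and versican and the product of Tnfaip6 (TSG-6) bind the chains in the matrix; TSG-6 also moves heavy chains of inter-alpha-inhibitor onto hyaluronan during inflammation.

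The arrays had been scaled alike, with a trimmed mean signal of 250.001 in each and medians from 71.2 to 86.3. Skin markers were strong: the lowest Krt14 signal of any array was 7501 and the lowest Krt10 signal 18972, both keratins of the epidermis. The 3' to 5' signal ratio of the Gapdh controls, which rises as RNA degrades, was 0.856 to 0.880 in the vehicle arrays and 0.917 to 0.932 in the BAC arrays. In DNFB replicates 1 to 3 it was 0.841, 1.36 and 0.943. The same ratio of the actin controls was 1.05 to 1.10 in the vehicle arrays, 1.18 to 1.22 in the BAC arrays, all above the vehicle, and 1.09, 1.28 and 1.23 in DNFB replicates 1 to 3. The part of these ratios in the results was not tested. Signals are MAS5 values on a linear scale, given as mean ± SD over 3 arrays. Log2 changes are differences of log2(signal + 16) with their standard error (SE) from limma, and the adjusted p covers all tested genes, with a threshold of 0.05. The number of arrays limits the precision, and with 3 arrays against 3 an exact permutation test cannot give a p below 0.1.

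Has1, Has2 and Tnfaip6 had their lowest mean signals in the vehicle arrays, higher means after DNFB and the highest after BAC. On the probe set that stood for each gene no groups overlapped. On the dimmer Has2 probe set the DNFB arrays overlapped both other groups. The share of all tested genes with such separate groups was not counted. Cd44 was higher after BAC and not measurably after DNFB. In the limma test 2 of the 7 members, Has1 and Tnfaip6, were higher in DNFB than in the vehicle and none was lower, where 6.76% of all tested genes were higher, 7.08% lower and 13.8% changed in either direction. After BAC 4 of 7 were higher, Has1, Has2, Tnfaip6 and Cd44, and none was lower, where 6.59% of tested genes were higher, 7.64% lower and 14.2% changed in all. Between the compounds the same 4 genes were lower in DNFB than in BAC and none was higher, where 3.66% of tested genes were lower, 3.14% higher and 6.8% differed. Differences among the 3 treatments by the moderated F test were called for these 4 members and for 19.4% of tested genes. The median log2 change over the 7 members was 0.24 for DNFB and 0.53 for BAC against the vehicle and -0.46 for DNFB against BAC, beside 0.00, -0.03 and 0.03 over all tested genes. Both comparisons with the vehicle use the same 3 vehicle arrays, so they are not independent of each other. Because the members were chosen with earlier results of these data known, the shares beside them are context and not a test of the set.

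**Figure D1:**
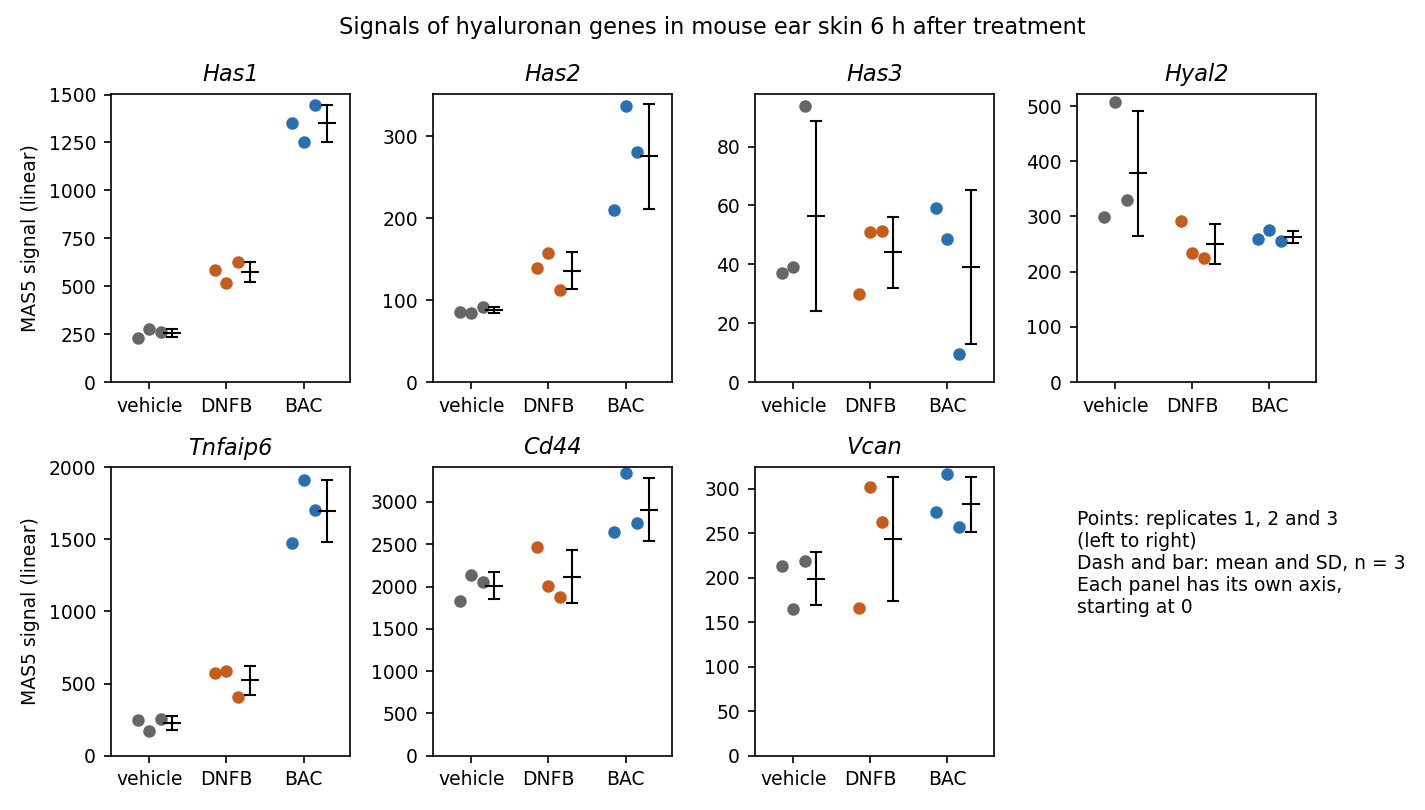
MAS5 signal (linear axis from 0, a separate scale in each panel) of the 7 measured hyaluronan genes in the 3 vehicle, 3 DNFB and 3 BAC arrays; points are arrays, and the dash and bar are the mean and SD. The arrays of Has1, Has2 and Tnfaip6 form 3 separate levels, whereas Has3 overlaps in all groups and the vehicle arrays of Hyal2 spread from 298 to 508.

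Among the synthases, Has1 (Entrez gene 15116) encodes an enzyme of the plasma membrane that polymerises hyaluronan. In replicates 1 to 3 the vehicle arrays gave 232, 275 and 260, with 583, 518 and 624 after DNFB and 1353, 1252 and 1443 after BAC. The groups did not overlap, and the spread within each was small beside the steps between them. The group means of 256 ± 21.8, 575 ± 53.5 and 1349 ± 95.2 put DNFB 2.25 times and BAC 5.27 times above the vehicle. On the log2 scale Has1 rose by 1.12 ± 0.12 after DNFB (limma adjusted p = 2.17e-05) and by 2.33 ± 0.12 after BAC (limma adjusted p = 1.2e-08). The DNFB arrays lay 1.21 ± 0.12 below the BAC arrays (limma adjusted p = 2.38e-05, 95% interval of the difference -1.48 to -0.94), and the BAC mean was 2.35 times the DNFB mean. Each of these calls held under all 19 alternative settings, including each left-out array. In bulk skin a higher signal from more cells of a type and one from more RNA per cell cannot be told apart.

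Has2 (Entrez gene 15117), whose product is the synthase needed for heart development in the embryo and a main source of dermal hyaluronan, was measured by 2 probe sets. On the brighter one the vehicle arrays gave 85.9, 84.8 and 91.9, the DNFB arrays 139, 157 and 112, and the BAC arrays 209, 336 and 280. Every DNFB array lay above every vehicle array and below every BAC array, but the DNFB change of 0.54 ± 0.21 did not pass (limma adjusted p = 0.106, 95% interval 0.10 to 0.99 before adjustment over genes). After BAC Has2 rose by 1.47 ± 0.21 (limma adjusted p = 0.000208), from a mean of 87.5 ± 3.83 to 275 ± 63.7. DNFB lay 0.92 ± 0.21 below BAC (limma adjusted p = 0.0153), with a BAC mean 2.02 times the DNFB mean of 136 ± 22.6. That difference between the compounds did not pass without DNFB replicate 3 (-0.81, adjusted p = 0.0689), BAC replicate 2 (-0.78, adjusted p = 0.0926) or BAC replicate 3 (-0.90, adjusted p = 0.0523), or with the mean of the 2 probe sets (-0.74, adjusted p = 0.064). The dimmer probe set gave 102, 111 and 62.8 in the vehicle, 183, 105 and 91.0 after DNFB, and 191, 247 and 136 after BAC. Its DNFB arrays overlapped both other groups. Its means were in the same order, with changes of 0.37 ± 0.29 for DNFB and 0.93 ± 0.29 for BAC. Neither passed when p was adjusted over all 29987 tested probe sets (limma adjusted p = 0.485 and 0.0514).

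Has3 (Entrez gene 15118), the synthase prominent in cultured keratinocytes, was dim. Its signal was 37.0, 39.0 and 93.8 in the vehicle, 30.0, 50.9 and 51.3 after DNFB, and 59.0, 48.7 and 9.61 after BAC, and only 4 of 9 arrays lay above the 40th percentile of their array. The groups overlapped throughout. The log2 changes were -0.21 ± 0.49 for DNFB and -0.45 ± 0.49 for BAC against the vehicle (limma adjusted p = 0.842 and 0.594). The 95% interval for BAC ran from -1.50 to 0.59, so changes of 2-fold downwards were within the error and no order of the groups can be read.

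The hyaluronidase Hyal2 (Entrez gene 15587) is anchored to the outer cell membrane by a lipid and cuts long chains into shorter ones. The vehicle arrays gave 298, 508 and 330 in order of replicate, with 291, 234 and 225 after DNFB and 258, 275 and 255 after BAC. All treated arrays lay below all vehicle arrays, and the gap to the lowest vehicle array was narrow, while vehicle replicate 2 stood far above the other vehicle arrays. The log2 changes of -0.54 ± 0.19 for DNFB (limma adjusted p = 0.0694) and -0.46 ± 0.19 for BAC (limma adjusted p = 0.115) did not pass. Without vehicle replicate 2 they were -0.32 and -0.24. Without vehicle replicate 1 the DNFB change was -0.68 and passed (adjusted p = 0.046). DNFB and BAC differed by -0.08 ± 0.19, with a 95% interval from -0.47 to 0.32.

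The 2 probe sets that the annotation shares between Hyal1, a lysosomal hyaluronidase, and Naa80, an acetyltransferase of actin, cannot be assigned to either gene. The first gave 375, 390 and 425 in the vehicle, 423, 325 and 410 after DNFB, and 289, 249 and 254 after BAC, and was lower after BAC by 0.56 ± 0.15 on the log2 scale (limma adjusted p = 0.0268 over probe sets). The second gave 355, 396 and 424 in the vehicle, 389, 239 and 399 after DNFB, and 362, 331 and 311 after BAC, with a BAC change of -0.22 ± 0.18 (limma adjusted p = 0.512). The BAC arrays of the first lay below all other arrays, and those of the second overlapped the vehicle. Neither probe set passed for DNFB against the vehicle.

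Tnfaip6 (Entrez gene 21930) had the largest change of the 7 measured members after BAC. TSG-6, its secreted product, binds hyaluronan through a link domain and crosslinks the chains. The vehicle arrays gave 251, 172 and 257, the DNFB arrays 576, 589 and 408, and the BAC arrays 1475, 1910 and 1706. The 3 groups were again separate, with DNFB 2.31 times and BAC 7.49 times the vehicle mean. Tnfaip6 rose by 1.16 ± 0.17 after DNFB (limma adjusted p = 0.000322) and by 2.83 ± 0.17 after BAC (limma adjusted p = 5.25e-08). DNFB lay 1.68 ± 0.17 below BAC (limma adjusted p = 2.43e-05, 95% interval -2.05 to -1.31), a ratio of means of 3.24 between BAC and DNFB. These calls held under all 19 alternatives.

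Has1 and Tnfaip6 are the members that rose after both compounds, and their upstream sequences are given to show what letters precede each start. RefSeq on GRCm38.p6 held a promoter entry for 6 of the 8 members. The 250 bases before the annotated start are printed 5' to 3' on the gene's strand, with motif matches in capitals. Has1 lies on the minus strand of chromosome 17 (chr17:17855189-17855438) and Tnfaip6 on the plus strand of chromosome 2 (chr2:52037863-52038112).
Has1: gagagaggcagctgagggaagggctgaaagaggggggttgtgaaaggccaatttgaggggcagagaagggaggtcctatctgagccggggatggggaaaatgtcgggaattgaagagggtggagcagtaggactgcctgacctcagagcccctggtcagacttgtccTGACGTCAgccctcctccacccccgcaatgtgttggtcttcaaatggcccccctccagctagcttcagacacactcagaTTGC
Tnfaip6: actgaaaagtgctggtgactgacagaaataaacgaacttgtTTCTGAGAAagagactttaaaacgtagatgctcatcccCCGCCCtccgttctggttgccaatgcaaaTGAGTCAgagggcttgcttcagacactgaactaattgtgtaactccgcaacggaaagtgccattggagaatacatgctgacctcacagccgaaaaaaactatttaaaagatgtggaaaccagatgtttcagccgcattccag

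The motifs were searched on both strands of 300 bases, from 250 before to 50 after the start: AP-1 (TGANTCA), the cyclic AMP response element CRE (TGACGTCA), the NF-kB consensus, STAT (TTCNNNGAA), C/EBP (TTGCNNAA), the antioxidant response element (TGACNNNGC), the TATA box (TATAAA) and the GC box (GGGCGG). The capitals of Has1 mark a CRE match starting at position -83 and a C/EBP match starting at position -4 that runs past the printed end. CRE matches occurred in 1.79% and C/EBP matches in 10.8% of 32851 promoter windows of that length. The capitals of Tnfaip6 mark a STAT match at -209, a GC box on the other strand at -171 and an AP-1 match at -142, found in 8.3%, 35.7% and 7.81% of windows. Neither window held the NF-kB consensus (4.51% of windows), the antioxidant response element (12.4%) or the TATA box (13.6%), which says only that these letters are not there. The windows shared no motif among those searched, and a match is a description of letters and not a bound site.

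Cd44 (Entrez gene 12505) encodes the transmembrane receptor that ties hyaluronan to the cell surface of keratinocytes, fibroblasts and leukocytes. On its brightest probe set the vehicle arrays gave 1830, 2140 and 2051, the DNFB arrays 2468, 2009 and 1872, and the BAC arrays 2641, 3337 and 2750. The BAC arrays lay above all others, and the DNFB and vehicle arrays overlapped. Cd44 rose by 0.53 ± 0.13 after BAC (limma adjusted p = 0.0102), a factor of 1.45 between means. With vehicle replicate 1 left out the BAC change was 0.46 (adjusted p = 0.0584), and with BAC replicate 2 left out 0.43 (adjusted p = 0.0603), so each of these arrays decided the call. The DNFB change was 0.07 ± 0.13 (limma adjusted p = 0.788), and its 95% interval of -0.20 to 0.34 lay below the BAC estimate. The difference of DNFB from BAC was -0.46 ± 0.13 (limma adjusted p = 0.0389), and it passed under 11 of 19 alternatives. It failed without DNFB replicates 2 (-0.43, adjusted p = 0.116) or 3 (-0.38, adjusted p = 0.151) and without BAC replicates 2 (-0.36, adjusted p = 0.178) or 3 (-0.50, adjusted p = 0.0666).

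Of the 4 Cd44 probe sets, 3 were bright enough to test, and each was higher after BAC when p was adjusted over all tested probe sets, of which 10.2% changed. The largest BAC change among them was 0.90 ± 0.21 (limma adjusted p = 0.0115), on the probe set that gave 501, 637 and 614 in the vehicle and 977, 1350 and 997 after BAC. Its DNFB arrays gave 828, 408 and 533 and overlapped the vehicle. None of the 3 passed for DNFB against the vehicle, where 10.4% of probe sets changed, and 2 of the 3 passed for DNFB against BAC, where 4.96% did. The other Cd44 probe set had no array above the 40th percentile.

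Vcan (Entrez gene 13003) encodes versican, a large proteoglycan whose amino-terminal end binds hyaluronan. The probe set with the highest mean gave 213, 165 and 219 in the vehicle, 166, 302 and 262 after DNFB, and 274, 317 and 257 after BAC. The BAC arrays lay above the vehicle arrays and the DNFB arrays spanned both. The changes of 0.24 ± 0.20 for DNFB and 0.48 ± 0.20 for BAC did not pass (limma adjusted p = 0.506 and 0.138). Of 8 Vcan probe sets 4 were tested, and 1 of them was called, for BAC, where 10.2% of all tested probe sets changed. This probe set gave 164, 125 and 152 in the vehicle, 185, 221 and 209 after DNFB, and 218, 264 and 275 after BAC. It had a BAC change of 0.72 ± 0.18 (limma adjusted p = 0.0175 over probe sets). Its DNFB arrays lay between the other groups with a change of 0.45 ± 0.18 that did not pass (limma adjusted p = 0.136). The remaining tested probe sets were dimmer, with BAC changes of -0.07 ± 0.41 and 1.37 ± 0.53, and neither passed, so a versican change depends on the probe set read.

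**Figure D2:**
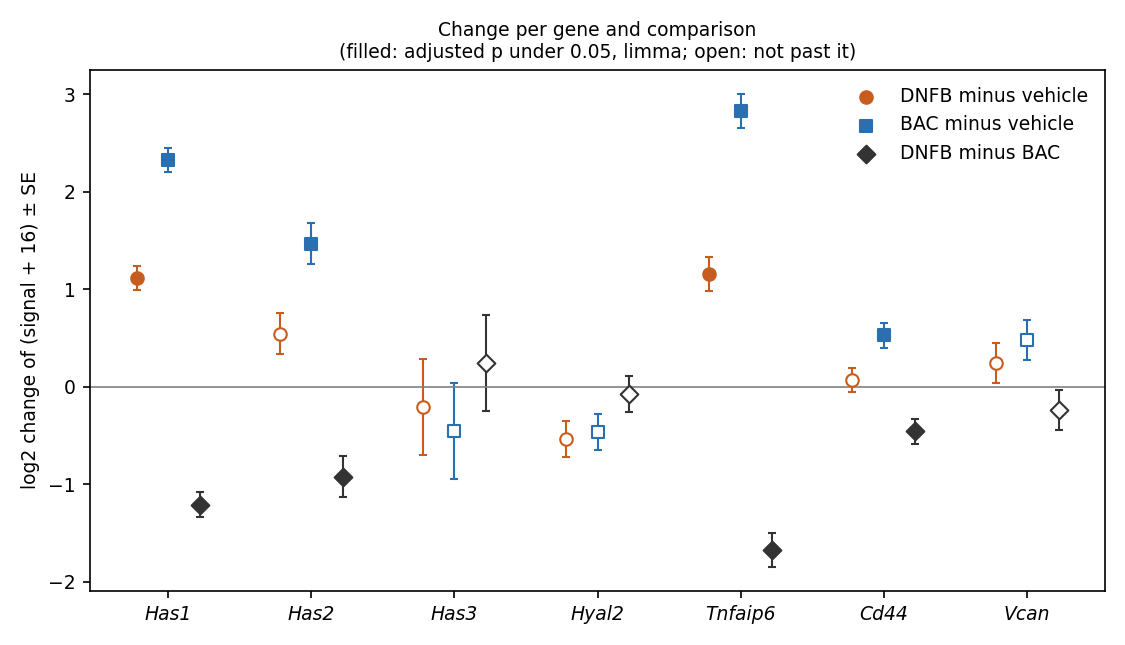
Log2 change of (signal + 16) with its SE for the 7 measured genes in 3 comparisons; filled symbols passed the limma test at an adjusted p under 0.05. Has1 and Tnfaip6 are filled in all 3 comparisons, Has2 and Cd44 in the 2 that involve BAC, and Has3, Hyal2 and Vcan in none.

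**Figure D3:**
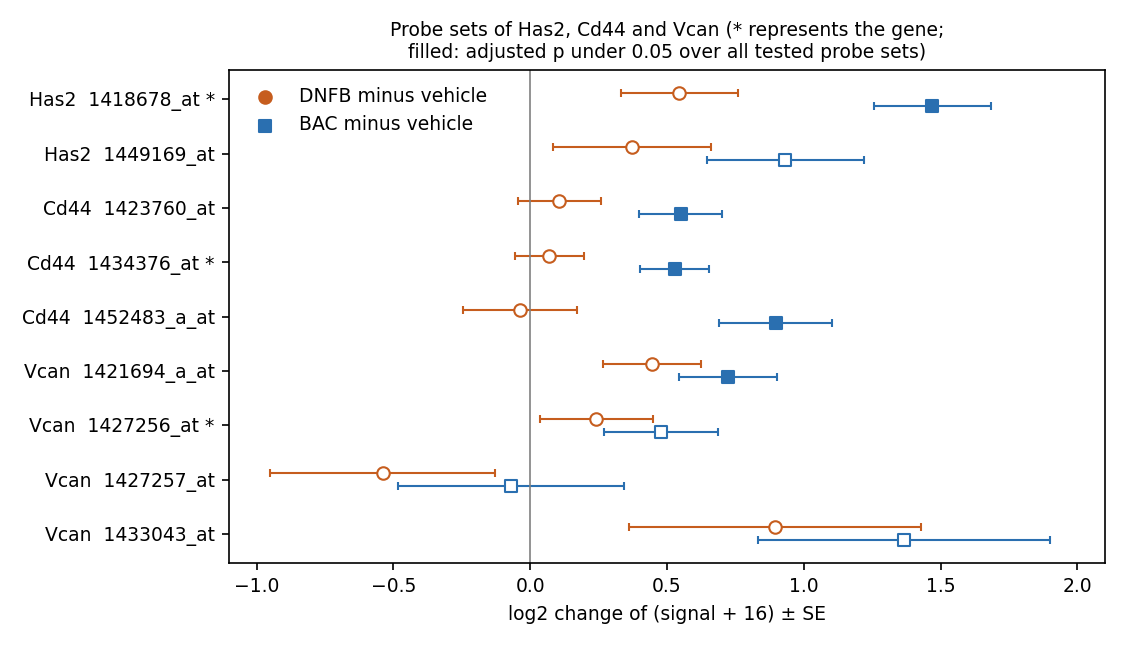
Log2 change with its SE of each tested probe set of Has2, Cd44 and Vcan against the vehicle; filled symbols passed after adjustment over all tested probe sets and the asterisk marks the probe set that represents the gene. All 3 Cd44 probe sets are filled for BAC and none for DNFB, whereas 1 of 4 Vcan probe sets is filled, for BAC. Of all tested probe sets 10.2% passed for BAC and 10.4% for DNFB.

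Of 11 tested genes that make or recycle the sugar precursors, 5 rose and none fell after DNFB (median log2 change 0.18), and 5 rose and 1 fell after BAC (median 0.19), where averaging all probe sets of each gene left 3 that rose and none that fell. For this and the following pathway lists, the shares over all tested genes were 6.76% higher and 7.08% lower after DNFB. They were 6.59% and 7.64% after BAC, and 3.14% and 3.66% for DNFB against BAC. The lists were chosen with earlier results of these data known, so these shares are context and not a test. Ugdh, Uap1, Gfpt2, Gfpt1 and Ugp2 rose in both comparisons, and Nagk, a salvage kinase, fell after BAC (-0.56, limma adjusted p = 0.0352). Ugdh, the enzyme that makes UDP-glucuronic acid, gave 1556, 1820 and 1833 in the vehicle, 5899, 4630 and 3706 after DNFB, and 3469, 4105 and 3594 after BAC, rises of 1.42 ± 0.14 and 1.09 ± 0.14 (limma adjusted p = 7.89e-06 and 8.9e-05). Uap1, which completes UDP-N-acetylglucosamine, rose by 1.39 ± 0.12 after each compound, and Gfpt2, an isoform of the first enzyme of the hexosamine pathway, by 0.91 ± 0.11 and 1.09 ± 0.11. By limma 0 of the 11 differed between DNFB and BAC, with 3 at an unadjusted p under 0.05, the smallest for the deaminase gene Gnpda2 (0.41 ± 0.13, adjusted p = 0.0818).

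Of 7 tested genes for breakdown and uptake besides the members, 3 rose and 1 fell after DNFB (median 0.27). Of these 4 calls, 1 was left when vehicle replicate 1 or 3 or any single DNFB array was left out, and 2 without vehicle replicate 2. After BAC 0 were called by limma (median 0.26), with 1 at an unadjusted p under 0.05, the lysosomal hexosaminidase gene Hexa (0.26 ± 0.12, adjusted p = 0.156). Hexa was among the 3 genes that rose after DNFB (0.42 ± 0.12, limma adjusted p = 0.0252). Cemip2, a cell surface hyaluronidase, fell by 0.67 ± 0.16 after DNFB (limma adjusted p = 0.0116) and was 0.96 ± 0.16 lower in DNFB than in BAC (limma adjusted p = 0.0019). Its fall after DNFB was -0.56 (adjusted p = 0.0699) when vehicle replicate 1 was left out, -0.51 (0.0543) when DNFB replicate 2 was, and -0.31 (0.414) as a mean over its probe sets. The fall did not pass without the intensity trend either (adjusted p = 0.0502). The DNFB rises of Cemip, a secreted hyaluronan-degrading protein (0.87 ± 0.26, limma adjusted p = 0.0382), and Stab1, a scavenger receptor (0.66 ± 0.17, limma adjusted p = 0.0202), ended under 10 of 18 and 4 of 19 alternatives. Those of Cemip ended with any single vehicle or DNFB array left out (adjusted p from 0.0518 to 0.159), and those of Stab1 without vehicle replicates 2 or 3 or DNFB replicates 1 or 3 (0.0526 to 0.0854). Between the compounds Stab1 was 0.64 ± 0.17 higher in DNFB (limma adjusted p = 0.04), a call that 7 alternatives ended.

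Of 19 tested genes for other binding proteins and matrix partners, 6 rose and none fell after each compound (medians 0.37 and 0.25). With 1 array left out the count was 5 to 6 for DNFB and 3 to 5 for BAC, so the BAC count of 6 was never reached. It was 3 without BAC replicate 2 and also without the intensity trend. Ptx3, a pentraxin that joins TSG-6 and the heavy chains in hyaluronan networks, gave 349, 232 and 215 in the vehicle, 1557, 1032 and 927 after DNFB, and 3424, 5499 and 3297 after BAC. It rose by 2.07 ± 0.22 and 3.85 ± 0.22, and its groups were separate and ordered as those of Tnfaip6, with DNFB 1.78 ± 0.22 below BAC (limma adjusted p = 0.000121). Under the 19 alternatives all 3 Ptx3 calls held, but the rises were as small as 1.24 and 1.84 and the difference as small as -0.60. Layn, a membrane receptor for hyaluronan, rose by 1.39 ± 0.26 after DNFB (limma adjusted p = 0.00216) and by 0.98 ± 0.26 after BAC (limma adjusted p = 0.022). The BAC rise of Layn did not pass when vehicle replicate 3 (0.68, adjusted p = 0.0901), BAC replicate 1 (0.0553) or BAC replicate 2 (0.0739) was left out. Nor did it pass without the intensity trend (adjusted p = 0.0572). The matrix protein gene Tnc rose by 1.16 ± 0.15 after DNFB and 0.64 ± 0.15 after BAC (limma adjusted p = 0.000104 and 0.0102). Thbs1, another matrix protein gene, rose by 0.88 ± 0.16 and 1.60 ± 0.16 (limma adjusted p = 0.00127 and 5e-06). Between the compounds 2 of the 19 were lower in DNFB, Ptx3 and Thbs1 (-0.72 ± 0.16, limma adjusted p = 0.0119). The Thbs1 difference did not pass without BAC replicate 3 (adjusted p = 0.0523) or without the intensity trend (0.0967). The RNA- and hyaluronan-binding protein gene Habp4 was 0.75 ± 0.21 higher (limma adjusted p = 0.0498), a call that 13 of 19 alternatives ended.

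Of 6 tested genes for versican-cleaving proteases and their inhibitor Timp3, 4 rose after DNFB (median 0.81) and 5 after BAC (median 1.25), Timp3 among them, and none fell. The BAC count was 3 without vehicle replicate 3, without BAC replicate 3, with median centring and without the intensity trend. Adamts4 gave 82.9, 85.2 and 77.5 in the vehicle, 415, 252 and 380 after DNFB, and 1136, 1258 and 1651 after BAC. It rose by 1.87 ± 0.19 and 3.78 ± 0.19, with DNFB 1.91 ± 0.19 below BAC (limma adjusted p = 1.29e-05). Adamts9 rose by 1.71 ± 0.14 and 2.0 ± 0.14, and Adamts1 by 1.14 ± 0.14 and 1.86 ± 0.14. Adamts4 and Adamts1 (-0.72 ± 0.14, limma adjusted p = 0.00643) were the 2 of 6 that were lower in DNFB than in BAC. Without the intensity trend that count was 1, and Adamts1 did not pass (adjusted p = 0.0683).

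Of 10 tested genes for CD44 membrane partners and sheddases, 3 rose and 2 fell after DNFB (median -0.08), and 3 rose and 1 fell after BAC (median 0.00). Msn, which encodes the actin linker moesin, rose by 0.67 ± 0.12 and 0.89 ± 0.12, and Mmp9, a gelatinase that docks on CD44, by 0.64 ± 0.18 after DNFB (limma adjusted p = 0.0296) and 1.15 ± 0.18 after BAC (limma adjusted p = 0.000557). Sdc4, a syndecan gene, rose by 0.79 ± 0.10 and 1.04 ± 0.10 (limma adjusted p = 5.42e-05 and 3.16e-06), and its BAC rise passed under all 19 alternatives. Ezr, which encodes the related linker ezrin, fell by 0.95 ± 0.11 after DNFB (limma adjusted p = 2.09e-05) and was the 1 of 10 that differed between the compounds (-0.66 ± 0.11, limma adjusted p = 0.00134). As a mean over its probe sets Ezr did not pass for DNFB (-1.02, adjusted p = 0.0852) or between the compounds (-0.32, adjusted p = 0.676), nor did the DNFB rise of Sdc4 (0.23, adjusted p = 0.277).

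**Figure D4:**
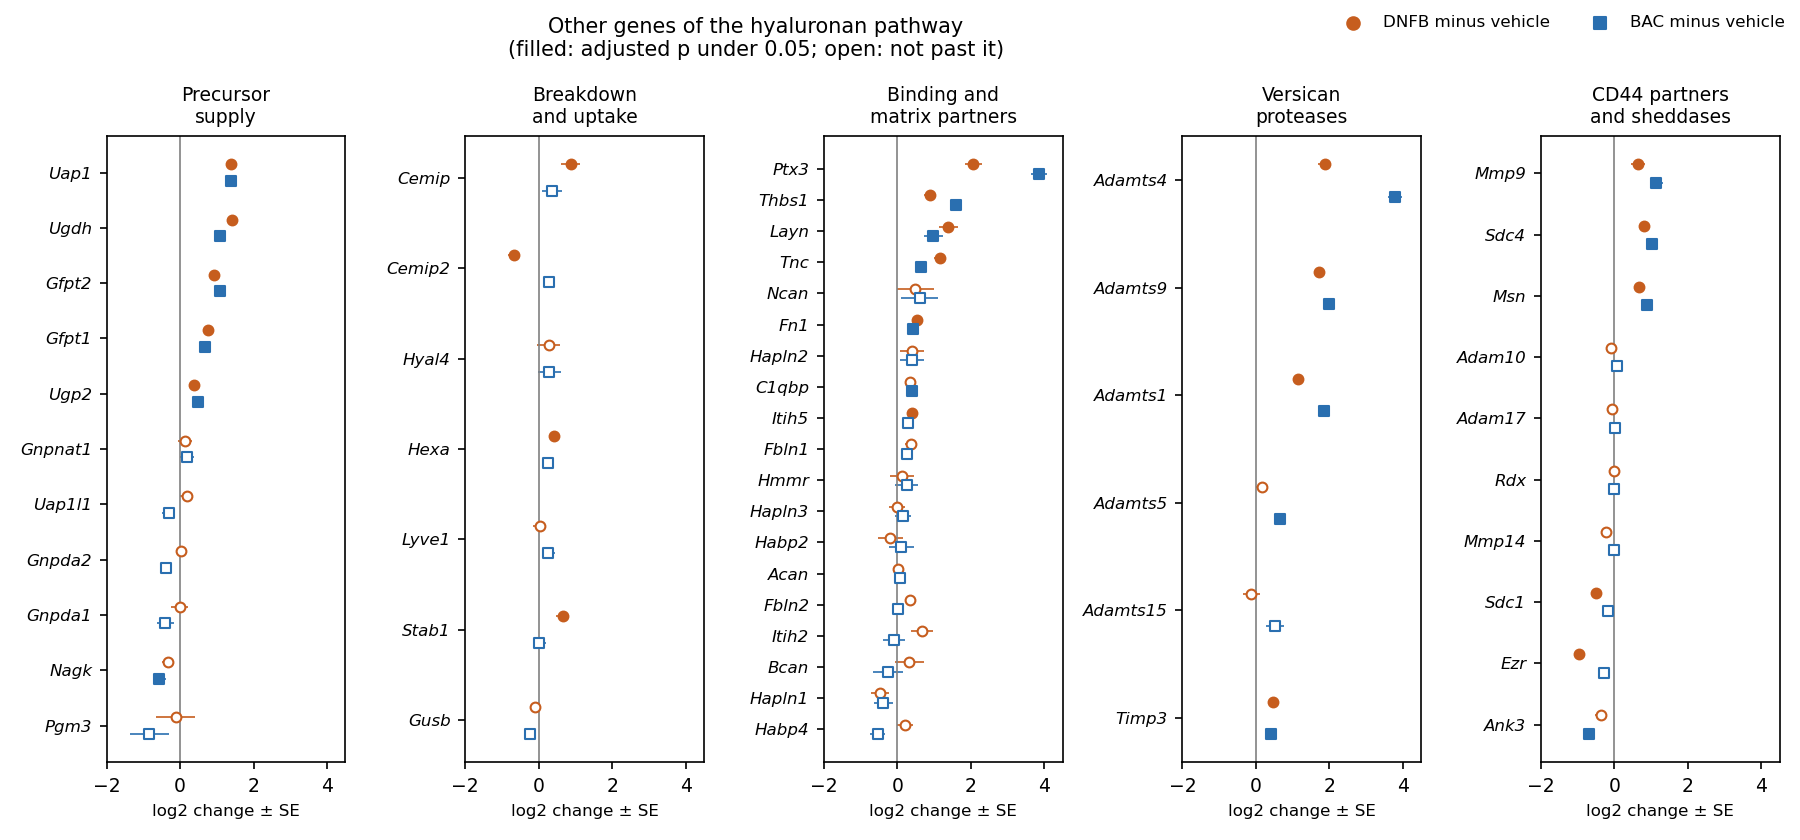
Log2 change with its SE of the other tested pathway genes against the vehicle, in 5 lists; circles are DNFB and squares BAC, and filled symbols passed the limma test. The 5 precursor genes that rose are filled for both compounds, and Nagk is filled below 0 for BAC alone, whereas Adamts4 and Ptx3 lie further right for BAC.

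Over the 9 arrays, Has1, Has2 and Tnfaip6 followed one another, with Pearson r of 0.93 for Has1 with Has2, 0.96 for Has1 with Tnfaip6 and 0.98 for Has2 with Tnfaip6. Cd44 had r of 0.79, 0.88 and 0.84 with these genes, whereas Hyal2 had r from -0.59 to -0.49 with Has1, Has2 and Tnfaip6 and -0.10 with Cd44. These values describe 9 arrays in 3 groups and largely restate the group means. The genes most like Has1 were Adamts4 (r = 0.99), the leukocyte surface gene Cd52 (0.99) and the leukocyte integrin gene Itgb2 (0.99). Those most like Tnfaip6 were the phosphodiesterase gene Pde4b (0.99), the actin-binding gene Lima1 (0.98) and Tgfb1i1, which encodes a focal adhesion protein (0.98). Lima1 (0.99), Tnfaip6 and the actin-binding gene Palld (0.97) were nearest to Has2, and B3gnt2, Gadd45a and Ccdc71l (0.95 to 0.96) to Cd44. The nearest genes to Hyal2 were Hacl1, Zfp445 and Chit1 (0.95 to 0.98), to Vcan Flii, Zfp638 and Ces1d (0.90 to 0.96), and to Has3 Acads, Hs6st1 and Gnpat (0.88 to 0.89).

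Several lists of markers of cell types that skin can hold had members called against the vehicle. Over all tested genes 6.76% rose and 7.08% fell after DNFB, and 6.59% rose and 7.64% fell after BAC. Between the compounds 3.66% were lower in DNFB. In lists this short, 1 call says little beside those shares. Of the 6 neutrophil markers with a probe set of their own, which did not include Ly6g, 5 rose after DNFB and 6 after BAC, and their summed signal was 1194 to 5680.4 in the vehicle, 10811 to 20439 after DNFB and 19333 to 28072.5 after BAC. S100a8 and S100a9 made up most of that sum, with 2565 and 2633 of the 5680.4 in vehicle replicate 2. In that array Csf3r (88.1) and Mmp8 (84.7) lay between the other vehicle arrays, while Cxcr2 (87.7) and Clec4d (222) lay above them. The sum therefore mainly follows S100a8 and S100a9. Of 8 monocyte and macrophage markers 4 rose after each compound, with summed signals of 10717 to 12408.5, 13549 to 15084 and 15949.6 to 16784. Of 7 fibroblast markers 2 rose after DNFB and none after BAC, with sums of 62428 to 71168, 78675 to 88878.5 and 71042 to 82148. Of 6 basal keratinocyte markers 4 fell after DNFB and 2 after BAC, with sums of 31925 to 32506, 21923.5 to 25459 and 26223 to 30563. Of 5 tested markers of Langerhans and dendritic cells 2 fell after DNFB and 4 rose after BAC, and 3 were lower in DNFB than in BAC. The sum of that list, with Ccr7 below the 40th percentile on all arrays, was 1090 to 1356 in the vehicle, 829 to 1010 after DNFB and 2641 to 3215 after BAC. Of 6 mast cell markers 4 rose after DNFB and none after BAC, with sums of 4255 to 4968, 6039 to 7632 and 4548 to 5577. In the other lists, markers of blood endothelium (2 of 6 and 1 of 6 after DNFB and BAC), lymphatic endothelium (2 of 5 and 1 of 5), smooth muscle and pericytes (3 of 5 and 2 of 5), skeletal muscle (3 of 6 and 0 of 6) and adipocytes (1 of 4 and 0 of 4) rose and none fell. Of 6 suprabasal keratinocyte markers 2 fell after DNFB and 3 after BAC, of 3 T cell markers 1 fell after DNFB, and of 7 cartilage markers 0 were called against the vehicle, with 1 at an unadjusted p under 0.05 for DNFB and 0 for BAC. The part of these cell types in the changes of the hyaluronan genes was not tested. Without vehicle replicate 2 Has1 changed by 1.17 after DNFB and Tnfaip6 by 0.98, and without DNFB replicate 2 by 1.19 and 1.06 (limma adjusted p at most 0.00277). Leaving out single arrays tests neither the part of cell types nor that of RNA quality.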

How the data were processed

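Biotin-labelled cRNA of 9 ear skin samples was read on Affymetrix arrays. Deposited by the authors were intensities on a linear scale, 1 per probe set and array, from MAS5 in the Affymetrix Expression Console per the submitters' processing notes, which name no version. Equal trimmed means show scaling to one target. Sample titles gave group and replicate, and 0 pairs of arrays were identical.

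The 64 control probe sets were left out. The platform annotation gave 34945 probe sets 1 gene and 932 several; the latter named no gene. The probe set with the highest mean over all arrays stood for a gene, and genes above the 40th percentile in at least 3 of 9 arrays were tested. Values were log2(signal + 16). All arrays entered one limma 3.58.1 model in R 4.3.3 (lmFit, then eBayes with trend; residual degrees of freedom 6, prior 9.09); tests were two-sided, and the Benjamini-Hochberg step took in all 14122 genes. The same fit was run over 29987 probe sets. Simulated arrays with known changes served to test the fit.

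The members, pathway lists and marker lists were chosen with earlier results of these data known. Named genes were all members, up to 3 of each pathway list with the largest change past the threshold in a comparison (or the smallest p where none passed), and the 3 genes with the highest correlation to each member among tested genes with a highest group mean above the median. Gfpt1, Ugp2, Nagk and Timp3 were named after their values were seen. Fbn1 and Spp1 had no probe set of their own and were not analysed here, and 1 listed gene is not reported here. Alternatives were other pseudocounts, filters, scalings and probe set rules, no trend, fewer groups, a replicate block and each left-out array.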

Additional observations from a re-analysis of the deposited data

How the results depend on the processing

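The 7 members were refitted under 19 alternatives. Has3 could not be fitted at the 60th percentile, where it was filtered out. Of 396 resulting changes, 374 kept their direction and side of the threshold, 15 lost the call, 1 gained it (Hyal2 after DNFB without vehicle replicate 1) and 6 changed sign, none of these past the threshold: Cd44 for DNFB with quantile normalization (-0.021), and 5 when 1 array was left out. The left-out ranges were -0.39 to 0.13 for Has3 after DNFB, -0.75 to 0.027 for Has3 after BAC, -0.24 to 0.54 for Has3 between the compounds, -0.046 to 0.15 for Cd44 after DNFB and -0.40 to 0.00079 for Vcan between the compounds. The number of members called was 2 to 3 for DNFB, 3 to 4 for BAC and 2 to 4 for DNFB against BAC when 1 array was left out, and 3 to 4 by the F test. Beyond left-out arrays, the calls lost were Cd44 for BAC without the intensity trend (adjusted p = 0.0602), Has2 against BAC with the mean of its probe sets, and Cd44 for DNFB against BAC with no filter on low values (adjusted p = 0.0532), median centring (0.134), no trend (0.141) and the replicate block (0.0519).

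Over all genes, 1955 were called for DNFB, 2009 for BAC and 961 between them. Without the intensity trend the counts were 1202 for DNFB and 402 for DNFB against BAC. Leaving out 1 array gave 1249 (without vehicle replicate 3) to 1929, 1225 (without vehicle replicate 1) to 2148 and 513 (without BAC replicate 2) to 999. With median centring 34.0% of BAC calls were higher, beside 46.3% in the deposited scaling, and the median BAC change of all genes was -0.12 beside -0.03; Has1, Has2 and Tnfaip6 rose after BAC under every scaling. Of 702 changes of the named pathway genes under the alternatives, 654 kept their direction and side of the threshold, whether called or not, 48 lost a call and 0 reversed.

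The replicate numbers showed little sign of pairing the arrays. Deviations of same-numbered arrays correlated from -0.12 to 0.15, with 1 of 9 pairs over 0.1, and 2 of 9 arrays correlated best with their own number. Left and right ears may still share a mouse under other numbers, which this check does not see, and the main fit is unpaired. With the replicate block 1874, 1939 and 860 genes were called, and it changed no call of a member other than Cd44 above. Arrays give no depth, and Has3 was too dim to rank its groups.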
